A study of Saccharomyces cerevisiae with 4 samples.

Results

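The genes of chromosome IX of budding yeast were followed from the left to the right telomere in wild-type cells and in a mutant of RSC, a complex that slides and evicts nucleosomes and whose ATPase subunit Nps1 (Sth1) is encoded on the left arm of this same chromosome. Members were the genes whose systematic name begins YIL (left arm) or YIR (right arm), apart from STH1, POT1, GUT2, GPP1, RNR3, HOP1, SPO22, DAL7, LYS1, PFK26 and genes with symbols beginning RPL, RPS, RPN, RPB, UTP, NOP, RRP, ATG, REV, MRP, RSM or VPS. Of the 197 genes in the RefSeq table that met this rule, 166 were measured, 130 on the left arm and 36 on the right arm, among 5343 genes measured in all. The rule uses names and not levels, but the chromosome was chosen by its fold changes between nps1-13 and WT on these same arrays. Its shift between the strains is therefore a description, with no test over the chromosome. The samples were 2 arrays of WT and 2 of nps1-13, each from total RNA of cells that had been grown on glucose (YPD) and then kept for 4 h in ethanol-glycerol medium (YPEG) at 28°C. WT was BY4743, a MATa/α diploid without functional HIS3, LEU2 and URA3, with 1 of 2 copies of MET15 (MET17) and of LYS2 deleted. The mutant was BYI-3, listed as a MATa/α diploid with nps1-13, a temperature-sensitive allele, in both copies, the same defects in HIS3, LEU2 and URA3, both MET15 copies deleted and no LYS2 deletion. Whether replicate arrays stand for separate cultures is not given in the sources used here, so p-values measure only the spread between arrays, which may be technical, and each genotype is 1 line.

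Genes that sit next to each other on a yeast chromosome mostly have unrelated functions and separate promoters, although divergent neighbours can share 1 stretch of upstream DNA. Exceptions on chromosome IX are the DAL genes of the right arm, a metabolic gene cluster for the use of allantoin as a nitrogen source, and the repeated gene families next to the telomeres. Some genes near telomeres can be silenced by Sir proteins. The chromosome also carries SUC2 (invertase), FLO11 (a flocculin needed for filamentous growth) and OM45 (an abundant protein of the mitochondrial outer membrane).

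The median of the 5558 probe sets was 3051 and 2770 in WT but 2158 and 2024 in nps1-13. Each array was therefore centred on its median, which added 0.48 to every log2 fold change. A gene with equal deposited signals in the strains is thus at 0.48 on the centred scale, and the median of all genes was at 0.07 when centred and at -0.41 as deposited. MET17, deleted in the mutant, had 4039 and 3883 in WT and 17.7 and 16 in nps1-13. STH1 itself, which carries the mutation, had 5017 and 4373 in WT and 7419 and 6524 in nps1-13, a centred log2 fold change of 1.05. The mating-type markers went against the genotype listed for the mutant. HMRA1, the probe set of the a1 transcript that an a/α cell makes, had 1599 and 1896 in WT and 0.9 and 6.1 in nps1-13. All 4 alpha-specific genes were higher in nps1-13, with a summed signal of 1243 to 1476 in WT and 11875 to 12065 in the mutant, and all 7 haploid-specific genes were higher, with 3827 to 4322 against 12031 to 12637. Of 7 a-specific genes none was higher and 2, STE2 and STE6, were lower. LEU2, deleted in both strains by the genotypes, had 14 and 37.1 in WT and 4446 and 4225 in nps1-13. What part this difference in cell type or strain background has in the values of chromosome IX was not tested. Below, nps1-13 means the arrays so labelled.

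Transcripts of chromosome IX were, as a group, more abundant in nps1-13 relative to the rest of the genome. The median member had a centred log2 fold change of 0.46 (a ratio of 1.37), against 0.05 for the 5156 genes of the other chromosomes. The quartiles were 0.13 and 0.82 for the members and -0.34 and 0.37 for the other chromosomes, so that the whole distribution lay higher while its width was alike, with an interquartile range of 0.69 and 0.71. In all, 137 of the 166 members (82.5%) lay above the median of all genes. The difference between the members and the median of all genes was 0.39 on the log2 scale both centred and as deposited and 0.41 after quantile normalization. The sign of the members' own median does depend on the scaling, since it was -0.02 as deposited, where all genes were at -0.41. The 21 measured genes of the chromosome left out by the rule had a median of 0.50.

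**Figure D1:**
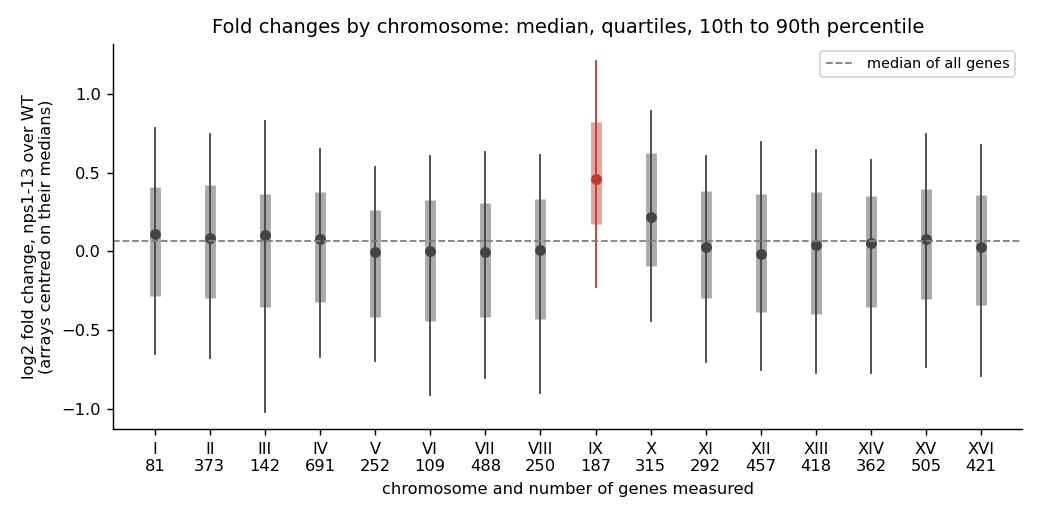
Centred log2 fold change of nps1-13 over WT (y axis) for the measured genes of each chromosome (x axis, with the number of genes). Points are medians, thick bars quartiles and thin lines the 10th to 90th percentiles. Chromosome IX, here with all 187 measured genes, has a median of 0.46, and the next is chromosome X with 0.22.

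By array, the members' median level stood 0.18 and 0.09 below the array median on WT replicates 1 and 2, and 0.33 and 0.38 above it on nps1-13 replicates 1 and 2, on the centred log2 scale. Over the 4 possible pairs of a mutant and a WT array, the members' median difference was 0.44 to 0.50, while that of all genes was 0.05 to 0.08. Between the arrays of 1 strain, the median of the members' per-gene differences was 0.01 in WT and 0.04 in nps1-13. As the chromosome was chosen by the difference between the strains, its size beside the replicates is a description only. These arrays measured RNA, and the number of DNA copies of the chromosome was not tested.

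Gene by gene, limma called 122 members higher and 19 lower in nps1-13 at an adjusted p under 0.05, and 25 did not pass. Among all genes 77.4% were called, 42.7% higher and 34.6% lower, so a call by itself sets no gene apart. As deposited, 50 members were called higher and 55 lower, where 9.41% and 64.3% of all genes were. All 50 were among the 122, of which 79 were above 0 as deposited and 13 were called lower there. The 19 lower members were lower on both scales. For 131 members both nps1-13 arrays lay above both WT arrays, and for 22 both lay below, against 49.0% and 40.3% of all genes. At a ratio of mean centred signals above 2 there were 28 members (16.9%) against 4.88% of all genes, and below 0.5 there were 3 (1.81%) against 4.96%.

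Measured against genes of the other chromosomes with like signals, the displacement was larger among dim than among bright members. When all genes were divided into 4 groups of equal size by their mean WT signal, the members' median was 0.58 in the dimmest group (up to 1509), 0.39 in the second, 0.41 in the third and 0.47 in the highest (above 5737). Genes of the other chromosomes were at 0.03, -0.08, 0.04 and 0.15 in the same groups, so that the difference went from 0.55 in the dimmest to 0.47, 0.37 and 0.32 in the brightest. The 3 brightest members in WT were RGI2, a respiratory growth protein, OM45 and SIM1, a protein of the SUN family. RGI2 had 21473 and 20780 in WT and 19164 and 20490 in nps1-13, a centred log2 fold change of 0.38. OM45 was at 0.51, and SIM1 was at -0.13 and did not pass. For these bright genes the scaling mattered, because quantile normalization gave 0.04 for RGI2, 0.20 for OM45 and -0.39 for SIM1, where SIM1 passed (limma, adjusted p = 1.71e-05) and RGI2 did not. Strand and length made little difference. The median was 0.47 for the 81 members on the Watson strand and 0.45 for the 85 on the Crick strand, and 0.45, 0.55 and 0.41 for 55 short, 56 middle and 55 long genes.

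**Figure D2:**
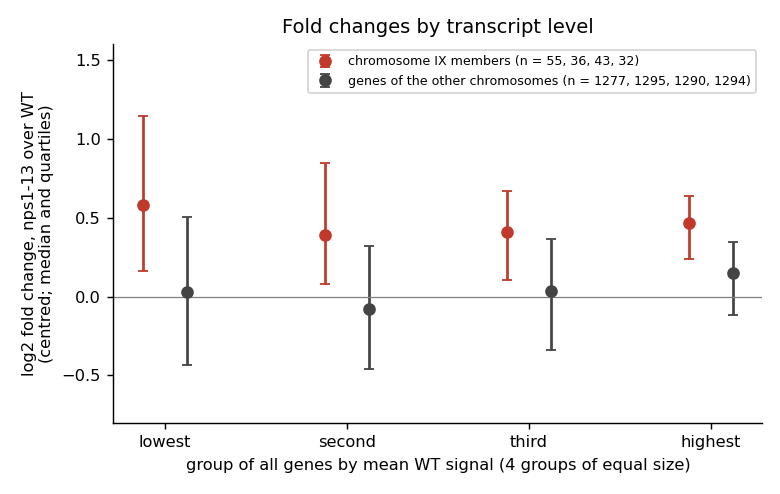
Centred log2 fold change of nps1-13 over WT (y axis; points are medians, bars quartiles) in 4 groups of all genes of equal size by mean WT signal (x axis), for chromosome IX members and for genes of the other chromosomes. The members' median lies above that of the other genes in each group, at 0.58 against 0.03 in the dimmest and 0.47 against 0.15 in the brightest.

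The leftmost measured stretch was not displaced, since the 7 members up to 50 kb had a median of 0.07, the median of all genes, with 4 of them above it. Medians of 15 consecutive members ranged from 0.10 to 1.07, and all 152 such windows lay above the median of all genes, which is 0.07. On the other chromosomes the share of windows above it ran from 23.2% on VI to 81.4% on X. The distance from the lowest to the highest window was 0.98 on chromosome IX. It lay within that of the other chromosomes, 0.56 on V to 1.23 on XVI. The lowest windows of chromosome IX, at 0.10, lay on the left arm between YIL134C-A and RHO3. The highest, at 1.07, held NOT3 to SNL1 in the inner part of that arm. In steps of 50 kb by R64 start position, the medians from left to right were 0.07, 0.26, 0.19, 0.46, 0.38, 0.49, 0.50, 0.69 and 0.65, with 7 to 24 members in each. The right arm thus stood higher than the left, with medians of 0.65 and 0.42. This difference of 0.24 has an SD of 0.04 over the 4 pairs of arrays, which share arrays and so are not independent. The left arm minus the right arm was -0.36 after quantile normalization and -0.19 at a mean signal of at least 100. Members of the right arm were also dimmer, with a median WT signal of 1370 against 2865 on the left. What part signal level has in the difference between the arms was not tested. On the right arm 30 of 36 members were called higher and 2 lower, and on the left arm 92 of 130 and 17.

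**Figure D3:**
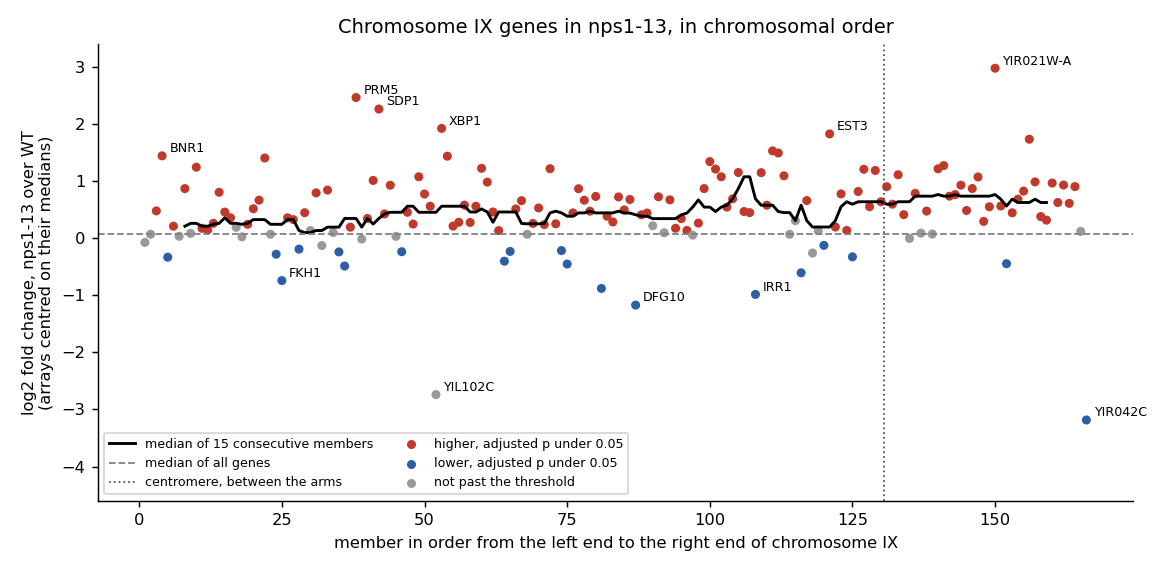
Centred log2 fold change of nps1-13 over WT (y axis) for the 166 members in order from the left to the right end (x axis), coloured by the limma call. The black line is the median of 15 consecutive members, which stays between 0.10 and 1.07, and the dashed line is the median of all genes at 0.07. As deposited, every value is 0.48 lower.

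The highest stretch was made of genes with different tasks. CST6, a bZIP transcription factor, had 5671 and 5291 in WT and 9054 and 9158 in nps1-13, a centred log2 fold change of 1.21 (standard error 0.05). CKA1, a catalytic subunit of casein kinase 2, was at 1.07. ULP2, a protease that removes SUMO, was at 1.15, and the zinc transporter gene YKE4 also at 1.15. HIS6, an enzyme of histidine synthesis, and FAF1, a ribosome assembly factor of the small subunit, which lie next to each other, were at 1.53 and 1.49. VID28, a subunit of the GID ubiquitin ligase, was at 1.09. Of these genes CKA1, YKE4 and VID28 were chosen after their values were seen. They were among the highest of the stretch, and other genes in it lay lower. NOT3, BCY1 and TIM44 were at 0.87, 0.69 and 0.58, against a median of 0.46 for all members. Inside the same stretch the cohesin subunit gene IRR1 was at -0.99, and at its inner border SNL1, an Hsp70 exchange factor, was at 0.07.

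At the left end, the outermost measured member was YIL165C at 33.7 kb, since the members nearer the telomere (from YIL177C and PAU14 to SOA1) were not measured. YIL165C and its neighbour NIT1, a nitrilase gene, were at -0.07 and 0.07 and did not pass. SUC2 followed at 0.48 with signals of 12007 and 11725 in WT and 12362 and 11399 in nps1-13, and BNR1, a formin, at 1.44. At the right end, the peroxidase gene HYR1, the glutathione transferase gene GTT1, the yapsin protease gene YPS6 and YIR042C were at 0.61, 0.90, 0.12 and -3.19. YPS6 did not pass. The 10 members within 30 kb of an end, all at the right end, had a median of 0.62, against 0.004 for the 223 genes this close to an end on other chromosomes. The right arm as a whole was at 0.65, so these members did not stand above their arm. Beside the centromere, INP51, a lipid phosphatase, and YIL001W were at 1.18 and 0.64 on the left, and the DNA helicase gene MPH1 and the actin patch gene AIM21 at 0.90 and 0.59 on the right.

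Some genes stood out upward from the median of their surroundings, though not all of them singly. PRM5, a membrane protein gene induced by pheromone and by cell wall stress, had signals of 338.9 and 266.9 in WT and 1262 and 1124 in nps1-13. Its centred log2 fold change was 2.46 (standard error 0.10), whereas the median of its 10 nearest measured genes was 0.27. SDP1, a phosphatase of the cell wall MAP kinase Slt2, had 659.1 and 652.5 in WT and 2297 and 2221 in nps1-13, at 2.26 against 0.38 around it. These are the members with the largest rises among those with a signal of at least 100 in a strain. That their arrays did not overlap between strains was a condition of the choice. XBP1, a repressor made under stress and in quiescence, rose from 2989 and 2704 to 7765 and 7725, a centred log2 fold change of 1.92 against 0.42 around it. EST3, a subunit of telomerase, had 1433 and 1392 in WT and 3949 and 3276 in nps1-13, at 1.83 against 0.13. BNR1 had 666.5 and 611.6 in WT and 1433 and 1084 in nps1-13. Its neighbours had a median of 0.21. POT1, the divergent gene next to it that the rule leaves out, differed from BNR1 by only 0.06. SGA1, the glucoamylase of sporulating cells, was at 1.44 with 1423 and 1138 against 2454 and 2492, and with 0.56 around it. SGA1 and XBP1 are adjacent and divergent, both were higher, and their values differed by 0.49. YIL134C-A, at 1.4, had 96.1 and 107.8 against 214.8 and 174.4, near the dim end of the arrays.

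Downward, YIR042C stood alone. It had 767.3 and 762.4 in WT and 64 and 57.1 in nps1-13, a centred log2 fold change of -3.19 (standard error 0.13), with 0.61 as the median around it. The signal in nps1-13 was under 100, so the size is not resolved. DFG10, a polyprenol reductase of dolichol synthesis, fell from 1836 and 1576 to 473.0 and 621.5 (-1.17), and its neighbours had a median of 0.42. IRR1 fell from 2389 and 2023 to 792.1 and 803.6, with 0.74 around it, the largest such gap after YIR042C among members with a signal of at least 100 in a strain. FKH1, a forkhead factor of the cell cycle, fell from 2225 and 2026 to 867.7 and 957.5 (-0.74 against 0.34). That the arrays did not overlap between strains was a condition for choosing these 4 genes. YIL014C-A, RPI1, YIL067C, DAL81, AIM19 and AIM20 completed the 10 largest decreases above that signal, with centred values of -0.61, -0.49, -0.45, -0.45, -0.40 and -0.33.

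**Figure D4:**
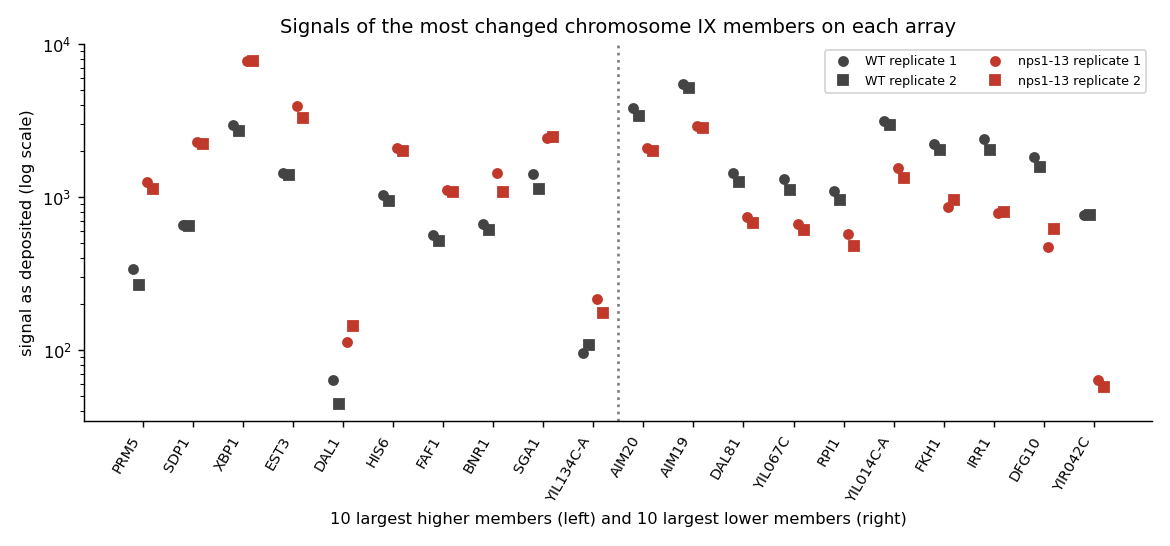
Deposited signals on each array (y axis, log scale) of the 10 members with the largest rise and the 10 with the largest fall (x axis) among those past the threshold with a signal of at least 100 in a strain. Circles and squares are replicates 1 and 2. That the arrays do not overlap between the strains was a condition for choosing these genes. YIR042C goes from 767.3 and 762.4 to 64 and 57.1.

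Members with mean signals under 100 in both strains were 5, YIR021W-A, YIL102C, PRM2, DAL4 and YIL060W, the last chosen after its values were seen. YIR021W-A was listed at 20.3 and 3.7 in WT and 60.6 and 39.6 in nps1-13, and YIL102C at 14.2 and 18.5 against 0.4 and 7.6. All but YIL102C passed, YIL060W (64.6 and 97.2 against 35.7 and 26.8) as lower and the other 3 as higher, but the size of change at such signals is not resolved. When 32 was added, YIL102C changed sign and YIL060W no longer passed.

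How far neighbours differed was described by orientation. Each measured gene of chromosome IX was paired with the next measured one, and unmeasured loci can lie between them, as YIL163C does between NIT1 and SUC2. The absolute difference in log2 fold change had a median of 0.39 for 54 divergent pairs and 0.45 for 54 convergent pairs. It was 0.55 for 78 pairs on 1 strand, and the quartiles of the 3 kinds overlapped.

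By role, the members were grouped into 12 lists, and counts are by limma with the arrays centred. Members at 0 to 0.48 are above the array median relative to WT but had lower deposited signals in nps1-13, so for these the direction rests on the centring. The list counts stand beside 73.5% higher and 11.4% lower over all members, with a median of 0.46, and 42.7% and 34.6% over all genes, with a median of 0.07. Of 8 members listed under allantoin and nitrogen use, 6 were higher and 1 lower, close to the shares of all members, with a median of 0.50. In the allantoin cluster of the right arm the 5 members measured, which lie side by side with DAL7 among them, were all called higher. With most members of the chromosome called higher, this does not set the cluster apart. DAL1, allantoinase, had 64.2 and 44.3 in WT and 113.3 and 143.2 in nps1-13 (1.73, standard error 0.23), and DAL4, the allantoin permease, 64.9 and 71.3 against 102.5 and 91.4 (0.99). Both are dim, with WT signals under 100, and the size of change is not resolved for either. DAL4 no longer passed as deposited. DAL3, ureidoglycolate lyase, had 841.5 and 783.4 in WT and 1174 and 1105 in nps1-13 (0.96). DAL2, allantoicase, and DCG1 were at 0.38 and 0.31, and their mean deposited signals were lower in the mutant. DAL81, the activator of these genes, which lies some way to the left, fell to -0.45. MGA2, a membrane-bound activator of the fatty acid desaturase gene, was at 0.62.

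Of 13 members of carbon and energy metabolism, 11 were higher (84.6%) and 0 lower, against 73.5% and 11.4% of all members, with a median of 0.38. AYR1, a lipid droplet reductase, and BCY1, the regulatory subunit of protein kinase A, were at 0.79 and 0.69. KGD1, the E1 subunit of 2-oxoglutarate dehydrogenase in the TCA cycle, had 13248 and 12492 in WT and 10325 and 9961 in nps1-13, at 0.13, and PIG2, a putative regulator of glycogen synthesis, was at 0.09. These last were below the chromosome's median and did not pass. Of 18 members listed under mitochondrial roles, 13 were higher (72.2%) and 3 lower (16.7%), close to the shares of all members, with a median of 0.39. A gene for an endoplasmic reticulum protein was also placed in this list and counted as higher. COX5B, the isoform of cytochrome c oxidase subunit 5 favoured at low oxygen, had 4324 and 4215 in WT and 6078 and 5592 in nps1-13 (0.93). POR2, a porin isoform, was at 1.01, TIM44, a part of the protein import motor, at 0.58 and FIS1, a fission factor, at 0.44. AIM19, AIM20 and YIA6, an NAD carrier, were the 3 that fell, YIA6 to -0.33, and the FAD carrier gene FLX1 at 0.07 did not pass.

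**Figure D5:**
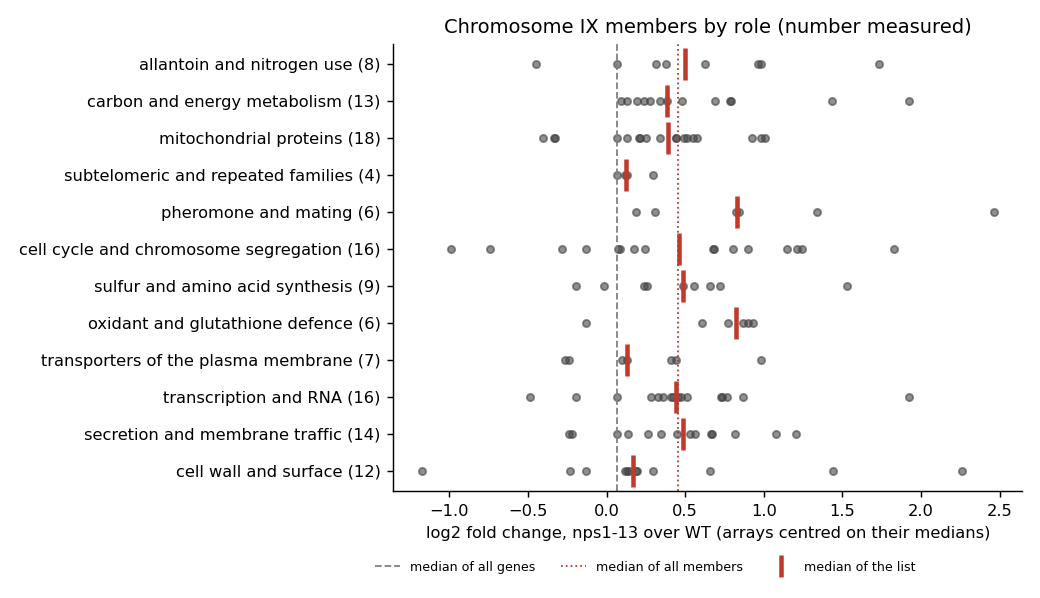
Centred log2 fold change of nps1-13 over WT (x axis) of each chromosome IX member in the 12 role lists (y axis, with the number measured). Red marks are list medians, the dashed line is the median of all genes (0.07) and the dotted line that of all members (0.46). List medians run from 0.12 for subtelomeric and repeated families to 0.83 for pheromone and mating.

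The list of pheromone response and mating had the highest list median, 0.83, with 4 of 6 higher and 0 lower. Besides PRM5 these were PRM2, whose size of change is not resolved at signals under 100, and POG1, a promoter of recovery from pheromone arrest, at 0.84. The last was the phosphatase gene YVH1 at 0.82, which was placed in this list but is not known for a role in mating. BAR1, the a-specific protease that degrades alpha-factor, had 176.1 and 161.4 in WT and 137.2 and 163.5 in nps1-13 and did not pass, and neither did AXL2, a bud-site marker, at 0.19. The mutant arrays have the haploid-type signature given above, and its part in the values of this list was not tested. Among the 6 genes of oxidant and glutathione defence, 5 were higher and 1 lower, with a median of 0.82. GTT1 had 11075 and 10327 in WT and 14031 and 14718 in nps1-13. IRC24, a reductase, was at 0.93, YAP5, an iron-responsive factor, at 0.87 and URM1, a ubiquitin-like protein of tRNA thiolation, at 0.77, while the peroxiredoxin gene DOT5 was at -0.13.

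Of 16 genes of the cell cycle and chromosome segregation, 10 were higher and 3 lower. MCM10, a replication factor, was at 1.24 with 284.0 and 260.7 in WT and 504.6 and 424.0 in nps1-13. NDC80, a kinetochore component, was at 0.80. Another kinetochore gene, DSN1, at 0.07 did not pass. CSM2, of the Shu repair complex, fell to -0.28 beside IRR1 and FKH1. In sulfur and amino acid synthesis 7 of 9 were higher and 1 lower. HIS6 was the highest, with 1029 and 948.4 in WT and 2102 and 1995 in nps1-13, whereas HIS5, another enzyme of the pathway, was at -0.02 and did not pass. MET30, a ubiquitin ligase subunit, and MET28, an activator of sulfur genes, were at 0.72 and 0.48, and MET18, an iron-sulfur targeting factor, was at -0.19.

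In transcription and RNA, 13 of 16 genes were higher and 2 lower, among them NOT3 of the Ccr4-Not complex at 0.87, SSL2 of TFIIH at 0.46 and the regulator RPI1 at -0.49. Of 14 genes of secretion and membrane traffic, 11 were higher and 2 lower. BET1, a SNARE, was at 1.21 and SLM1, a TORC2 effector, at 1.08, but SEC24, a cargo adaptor of COPII coats, had 7165 and 6464 in WT and 4288 and 4012 in nps1-13 (-0.24). SEC6, of the exocyst, was at -0.22. Cell wall and surface genes had a list median of only 0.17, with 6 of 12 higher and 2 lower. SLN1, an osmosensor, was at 0.15, the GTPase gene RHO3 at 0.19, FLO11 at 0.29 and the mannosyltransferase gene KTR7 at -0.23. Of 7 genes listed as plasma membrane transporters, 4 were higher and 1 lower, with a median of 0.13. This list also holds transporters of inner membranes. QDR1 and QDR2, adjacent multidrug exporters, were at -0.24 and 0.10, the sterol transporter gene PDR11 at -0.26 and SYG1 at 0.44, where QDR2 and PDR11 did not pass. Of the 12 subtelomeric and repeated family genes listed, 4 were measured, with a median of 0.12 and 1 higher. The cell wall mannoprotein gene TIR3 among them was at 0.13 and did not pass. Genes of the right arm outside these lists included STS1, which tethers proteasomes to the nucleus, SQT1, a chaperone of a ribosomal protein, and DJP1, of peroxisomal import, at 1.21, 1.27 and 1.11, and were chosen after their values were seen.

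Chromosome X came closest to chromosome IX. Its 315 genes had a median of 0.22, with 63.5% above the median of all genes, and the other 14 chromosomes ran from -0.02 to 0.11 and from 40.4% to 54.2%. In steps of 50 kb the medians of chromosome X lay between -0.06 and 0.44. Between the nps1-13 arrays, replicate 2 was 0.07 lower than replicate 1 for the genes of chromosome X and 0.04 higher for those of chromosome IX, while the median over all genes was 0.02 higher. In WT the corresponding differences were 0.01 on both chromosomes.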

How the data were processed

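RNA from WT and nps1-13 cells was hybridized to Affymetrix Yeast Genome 2.0 arrays. The deposited intensity values are linear signals per probe set that the authors computed with GCOS 1.4 using default settings and global scaling. Their array medians differ, so each array was centred on its median log2 signal. Gene names of probe sets came from the array's annotation table and were matched to the RefSeq table of assembly R64, whose positions were used. Of 5558 probe sets, 5345 had 1 gene and 213 were unnamed here. For 2 genes the brighter of several probe sets was kept. The test was limma 3.58.1 under R 4.3.3 (linear model, moderated with an intensity trend), Benjamini-Hochberg adjusted over 5343 genes at 0.05, after a trial on simulated data. All direction calls are on the centred scale unless stated.

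The members and lists were chosen with earlier results of these data known. Genes named were the 10 largest rises and falls past the threshold with arrays apart and a signal of at least 100 in a strain, the 4 members nearest each end and 2 beside the centromere on each arm, the 5 most above or below their 10 nearest genes, the 3 brightest and dimmest in WT, and list members. The 7 further members outside this rule are marked in the text as chosen after their values were seen. POT1, not a member, was also named after its value was seen. Alternatives were the deposited scale, quantile normalization, a mean signal of at least 100, 32 added to the signal, no trend, a replicate block, the mean of probe sets, other distance limits, a 2-fold rule and leaving out each array. Python 3.11.15 with pandas 2.3.3 and matplotlib 3.10.9 was used for summaries. Sequences were not used here. The precision is limited by 2 arrays per strain.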

Additional observations from a re-analysis of the deposited data

How the results depend on the processing

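Of the members, 122 were higher and 19 lower with centred arrays, 50 and 55 as deposited, 28 and 3 by a 2-fold ratio of centred signals and 8 and 7 by a 2-fold ratio of deposited signals (the last chosen after seeing the data). Leaving out 1 array gave 114 to 121 higher and 13 to 20 lower; 111 higher and 12 lower calls were shared by all 4 of these fits. With the replicate number as a block the counts were 122 and 19. The numbers share no known culture, and the deviations of same-numbered arrays correlated at -0.12 across genes; with crossed numbers, added after seeing the data, 122 and 21 were called. The members' median of 0.46 became -0.019 as deposited and 0.40 by quantiles, and 0.45 to 0.48 without 1 array. The left arm minus the right arm was -0.24, -0.36 by quantiles and -0.19 at a mean signal of at least 100. For members within 30 kb of an end the median of 0.62 was 0.14 as deposited, 0.50 by quantiles, 0.61 at a mean signal of at least 100, with 32 added or within 20 kb, and 0.51 within 50 kb. Among 92 genes named, 20 changed sign as deposited: NIT1 to -0.41, YPS6 to -0.36, RGI2 to -0.092, DAL2 to -0.099, DCG1 to -0.16, KGD1 to -0.34, PIG2 to -0.38, FIS1 to -0.0345, FLX1 to -0.41, BAR1 to -0.17, AXL2 to -0.29, DSN1 to -0.40, QDR2 to -0.38, SYG1 to -0.037, SSL2 to -0.020, SLN1 to -0.33, FLO11 to -0.18, RHO3 to -0.28, TIR3 to -0.35 and SNL1 to -0.41. By construction these are the genes between 0 and 0.48 when centred. A further 9 named genes (SUC2, HYR1, YIL001W, AIM21, OM45, DAL4, MGA2, TIM44 and MET28) no longer passed as deposited. By quantiles KGD1 was at -0.13, DSN1 at -0.010 and QDR2 at -0.046, and RGI2, YIA6, CSM2, QDR1 and RHO3 no longer passed. With 32 added YIL102C was at 0.039 and YIL060W no longer passed, and without the trend DOT5 and FLO11 did not. Of values that did not pass, NIT1 ran down to -0.0049 (without nps1-13 replicate 2) and HIS5 from -0.067 to 0.034 (without nps1-13 replicates 1 and 2 respectively). The calls lost were DCG1, MET18, DOT5, SEC6, SLN1 and FLO11 without WT replicate 1, DCG1, YIA6, CSM2, MET18, DOT5, QDR1, SLN1 and YIL060W without WT replicate 2, MET18 and FLO11 without nps1-13 replicate 1, and FLO11 and YIL060W without nps1-13 replicate 2. With the replicate block, DOT5 and SLN1 were lost and SIM1, KGD1 and AXL2 gained. Other genes that gained a call were YIL165C, SIM1, YIL102C, HIS5 and PDR11 as deposited, SIM1, AXL2 and SNL1 by quantiles, BAR1 with 32 added, AXL2 without WT replicate 1, YPS6, PIG2, BAR1, DSN1 and PDR11 without nps1-13 replicate 1, and SIM1, YIL102C and AXL2 without nps1-13 replicate 2. Apart from the construction of the scales, the cause was not tested.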
